A study of Mus musculus with 10 samples.

Results

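Nsdhl, Pmvk and Tm7sf2 encode 3 enzymes that build cholesterol, and 4 probe sets of the mouse array U74Cv2 carry their names, 1 each for Nsdhl (suffix _f_at) and Tm7sf2 (suffix _s_at) and 2 for Pmvk, told apart below by their suffixes _f_at and _i_at. They are 3 of 5928 genes and 4 of 11868 probe sets measured. The genes were chosen by their measured levels, as those raised with each of 2 transgenes for nuclear sterol regulatory element-binding proteins (SREBPs) and lowered when SCAP was lost. Their differences in those 3 comparisons are therefore given as a description, with no p-value. Calls counted in them below restate the choice and are not read as a test. Liver RNA was measured in 5 groups of male mice. TgSREBP-1a and TgSREBP-2 mice express the nuclear, active part of human SREBP-1a or SREBP-2, and with their wild-type littermates (SREBP wild type) they were 12 to 16 weeks old and had eaten a diet high in protein and low in carbohydrate for 2 weeks. Scap-/- mice had lost Scap through an MX1-Cre transgene, a recombinase under an interferon-responsive promoter that poly(I:C) switches on. At 10 to 12 weeks of age, on Teklad chow, both these and the Scap wild type mice received 4 poly(I:C) injections, with livers collected 14 days after the final dose. RNA of 5 mice was pooled in each group and the pool was hybridised in duplicate, so that n = 2 means hybridisations of 1 pool, and spread between mice was not measured. As background, the SREBP transgenes of these lines are driven by the phosphoenolpyruvate carboxykinase promoter, active in liver and switched on by such a diet; the strain is not given in the sources used here.

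Cholesterol is made from acetyl-CoA by way of mevalonate, squalene and lanosterol. Pmvk, phosphomevalonate kinase, acts early, in the conversion of mevalonate to the isoprene units from which squalene is assembled. Tm7sf2, a sterol reductase, and Nsdhl, a sterol dehydrogenase of the complex that removes methyl groups from the ring, act late, after the ring has closed to lanosterol. SREBPs are made as membrane proteins, and SCAP escorts them to the Golgi, where cleavage frees the nuclear part that binds sterol regulatory elements in the genes of this pathway, often beside sites for NF-Y or Sp1.

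Levels are log2 values after RMA, a procedure that corrects background, equalises arrays and merges the signals of all probes in a set. The array medians lay between 4.69 and 4.77. Scap, Srebf1 and Srebf2 have no named probe set among those tested, so the deletion and the transgenes were not checked at their own transcripts. Of 20 hepatocyte markers 5 were measured. Fga, Apoh and Serpina11 had group means of 7.06 to 9.41, while Serpina1a and Ahsg lay at 2.73 to 3.58, and markers such as Alb and Apoa1 are not among the tested probe sets. Of 15 pancreatic acinar markers 7 were measured. Their summed linear signal was 149 to 163 on the Scap-/- arrays, 158 to 164 in TgSREBP-1a, 476 to 490 in Scap wild type, 898 to 1397 in SREBP wild type and 1694 to 2123 in TgSREBP-2. The acinar sum was lowest in Scap-/- and TgSREBP-1a and highest in TgSREBP-2. Cpa1, with group means of 5.49 to 10.67, made up most of the larger sums. Not all of the 7 followed the sum, as Amy2a5 was highest in Scap-/-. By the threshold given below, Cpa1 (-2.86, log2) and Gp2 (-1.32) were called lower in Scap-/-. Of all 11868 probe sets 5 (0.0421%) were called lower there, and no other acinar marker was called. In TgSREBP-1a 3 of the 7 were called lower (0.354% of all probe sets), and in TgSREBP-2 2 were called higher (0.11%). How the acinar signal relates to the levels of the 3 genes was not tested. The 2 measured of 10 macrophage markers, Vsig4 and Laptm5, summed to 1106 to 1179 in TgSREBP-1a against 471 to 625 in SREBP wild type, 788 to 861 in TgSREBP-2, 655 to 878 in Scap-/- and 699 to 790 in Scap wild type. Of the measured bile duct (2 of 6), endothelial (2 of 11), stellate (1 of 8) and lymphocyte (1 of 6) markers, Epcam alone was called in a comparison, lower in TgSREBP-1a (-0.63, log2), as was the hepatocyte marker Serpina11 (-1.51). The part of these cells in the results was not tested, and in bulk RNA a change in the number of cells of a type cannot be told apart from a change in RNA per cell.

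Ranked by the smallest of their 3 movements (the decrease in Scap-/- and the increases in TgSREBP-1a and TgSREBP-2) among 7717 probe sets with 1 gene symbol, Nsdhl stood first with a smallest movement of 2.47, Pmvk _f_at followed with 1.73 and Tm7sf2 with 1.45, all on the log2 scale. Just outside lay the desaturase gene Fads2 (1.18), the cytochrome b5 gene Cyb5b (0.76), Rnf213 (0.50), Cisd1 (0.50) and Rnf125 (0.47). A probe set was called where its limma adjusted p was under 0.05 and its 2 group means differed by 1.5-fold or more. In Scap-/-, 3 of the 4 probe sets were called lower, against 0.0421% of all 11868 tested. In TgSREBP-1a the same 3 were called higher, against 0.683%, and in TgSREBP-2 again these 3, against 0.11%. They were the 3 probe sets called in all 3 comparisons. These counts restate the choice of the genes, and nothing is read from them. The Pmvk _i_at probe set was number 593 in the ranking, with a smallest movement of 0.03.

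**Figure D1:**
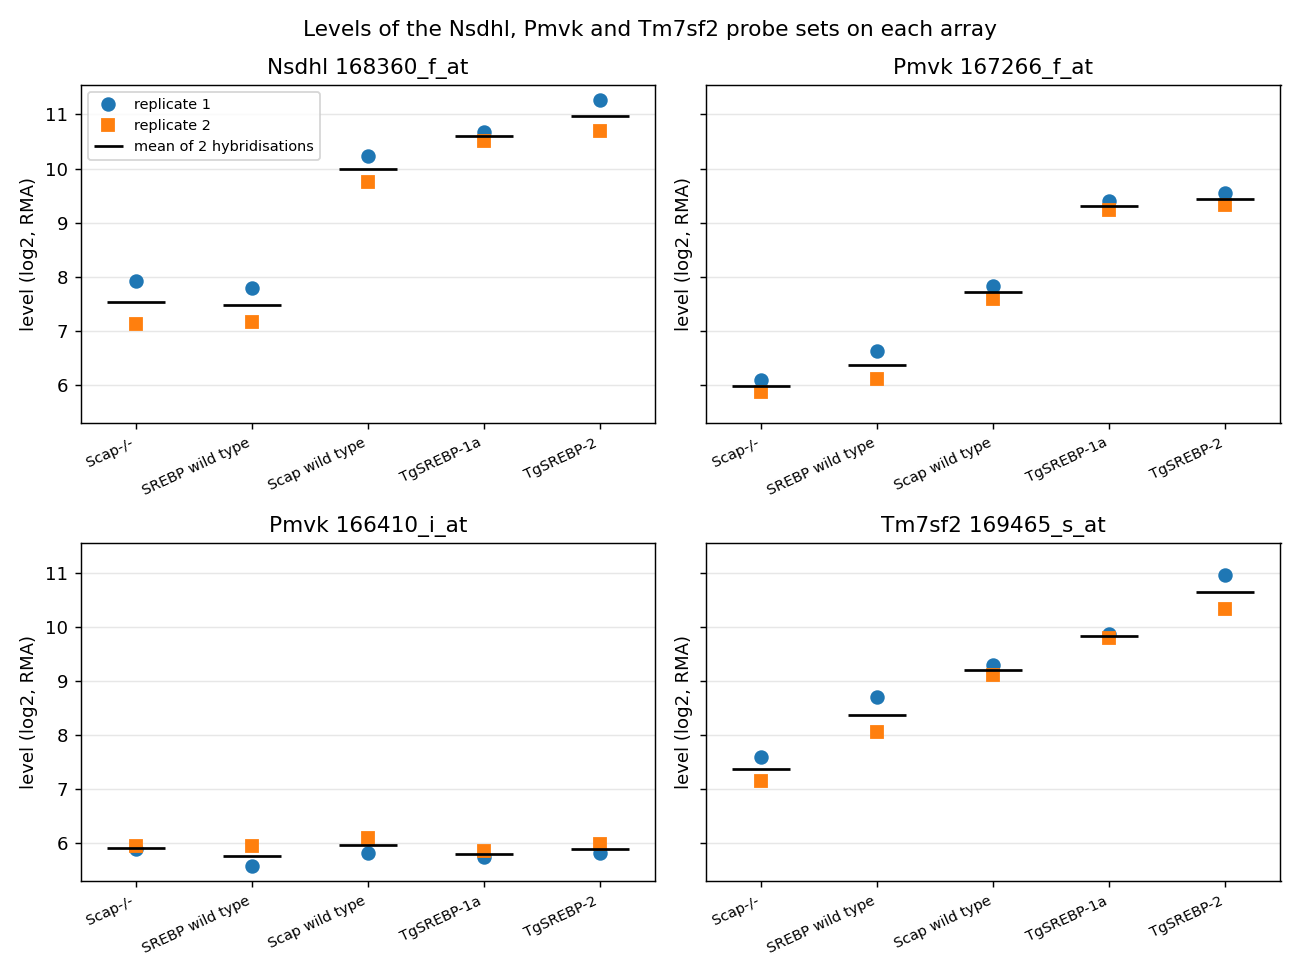
Level (log2, RMA) of each of the 4 probe sets on every array, by group; circles are replicate 1, squares replicate 2 and lines the mean of the 2 hybridisations. Nsdhl, Pmvk _f_at and Tm7sf2 are highest in TgSREBP-2, at means of 10.98, 9.43 and 10.65, while Pmvk _i_at stays between 5.58 and 6.11 on all 10 arrays.

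Pmvk transfers a phosphate to phosphomevalonate. RefSeq gives the gene 2 start sites. The window shown runs from 250 bases before to 50 bases after the first of them (chr3:89454291-89454590, + strand, GRCm38.p6). Pmvk is shown because its _f_at probe set moved together with Nsdhl and Tm7sf2, which does not choose between the 2 start sites. Which start site the probe set reports was not tested. Capitals mark the match of the window shown to CCAAT, the box bound by NF-Y.
Pmvk: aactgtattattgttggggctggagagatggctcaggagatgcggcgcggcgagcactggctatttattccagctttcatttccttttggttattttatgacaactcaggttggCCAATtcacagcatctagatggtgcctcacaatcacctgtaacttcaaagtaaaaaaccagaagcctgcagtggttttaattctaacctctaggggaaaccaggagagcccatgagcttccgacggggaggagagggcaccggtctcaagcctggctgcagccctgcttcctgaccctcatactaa
At the Pmvk _f_at probe set the level was 6.09 and 5.87 on the Scap-/- arrays and 7.84 and 7.59 on those of Scap wild type. It was 6.64 and 6.12 in SREBP wild type, 9.40 and 9.23 in TgSREBP-1a, and 9.54 and 9.33 in TgSREBP-2. The arrays of both transgenic groups lay above all 6 others, and those of Scap-/- below all others. Without SCAP the mean was 3.32-fold lower than in Scap wild type (log2 difference -1.73, SE 0.165). It was 7.64-fold higher than SREBP wild type in TgSREBP-1a (2.93, SE 0.165) and 8.30-fold higher in TgSREBP-2 (3.05, SE 0.165). The order rose from Scap-/- to SREBP wild type, then Scap wild type, and then TgSREBP-1a and TgSREBP-2. The last 2 overlapped, and Scap-/- and SREBP wild type were separated by 0.03 between their nearest arrays.

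The other Pmvk probe set, _i_at, did not show this pattern. Its levels were 5.89 and 5.95 in Scap-/-, 5.82 and 6.11 in Scap wild type, 5.58 and 5.95 in SREBP wild type, 5.74 and 5.85 in TgSREBP-1a, and 5.82 and 5.99 in TgSREBP-2. Every neighbouring pair in the order of the groups overlapped. The differences were -0.04 (SE 0.138) in Scap-/-, 0.03 in TgSREBP-1a and 0.14 in TgSREBP-2, and the highest and lowest group means were 0.20 apart, near the median range of 0.22 over all probe sets. Across the 10 arrays, which share 5 pools and 1 normalisation, the 2 Pmvk probe sets correlated at -0.09. By the maker's naming, the suffixes _f_at and _s_at stand for sequence that can be shared with other transcripts, and _i_at for an incomplete set of probes; which transcripts each detects was not tested.

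Tm7sf2 reduces a double bond of the sterol ring after lanosterol demethylation, a step that Lbr can also perform. Its promoter window (chr19:6067801-6068100, - strand, GRCm38.p6, written in the direction of the gene) is shown for the same reason. Capitals mark 2 matches to GGGCGG, the box bound by Sp1, on opposite strands, and 1 match to CCAAT on the strand opposite to the gene.
Tm7sf2: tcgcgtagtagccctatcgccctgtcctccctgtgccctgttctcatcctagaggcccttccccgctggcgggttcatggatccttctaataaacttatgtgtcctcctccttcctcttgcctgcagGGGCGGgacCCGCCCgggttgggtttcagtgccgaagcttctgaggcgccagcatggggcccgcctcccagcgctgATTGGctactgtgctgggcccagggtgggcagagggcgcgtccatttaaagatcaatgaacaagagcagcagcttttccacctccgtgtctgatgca
The level was 7.59 and 7.15 in Scap-/- and 9.29 and 9.11 in Scap wild type. It was 8.70 and 8.06 in SREBP wild type, 9.87 and 9.79 in TgSREBP-1a, and 10.97 and 10.33 in TgSREBP-2. No neighbouring groups overlapped, in the same order as for Pmvk _f_at. The mean was 3.56-fold lower in Scap-/- than in Scap wild type (log2 difference -1.83, SE 0.233). It was 2.74-fold higher than SREBP wild type in TgSREBP-1a (1.45, SE 0.233) and 4.81-fold higher in TgSREBP-2 (2.27, SE 0.233). Of the 3 genes Tm7sf2 had the smallest increases in both transgenic groups, and the steps between its neighbouring group means, 0.63 to 1.01, were the most even.

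Nsdhl oxidises the sterol while methyl groups are being removed from its ring, and lies on the X chromosome. Its promoter window (chrX:72918271-72918570, + strand, GRCm38.p6) holds the only approximate sterol regulatory element found in the 4 windows of the 3 genes. Capitals mark that match to TCACNCCAC, with 1 mismatch, at positions -205 to -197 counted from the start site, 4 matches to CCAAT (3 of them on the opposite strand) and 1 match to GGGCGG.
Nsdhl: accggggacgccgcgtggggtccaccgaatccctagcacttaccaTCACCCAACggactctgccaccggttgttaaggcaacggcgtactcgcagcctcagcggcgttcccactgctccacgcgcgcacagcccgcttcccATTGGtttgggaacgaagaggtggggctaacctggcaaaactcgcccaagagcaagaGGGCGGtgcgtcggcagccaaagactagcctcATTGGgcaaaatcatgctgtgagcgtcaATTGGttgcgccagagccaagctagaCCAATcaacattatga
The level was 7.93 and 7.13 in Scap-/- and 10.24 and 9.75 in Scap wild type. It was 7.79 and 7.17 in SREBP wild type, 10.68 and 10.51 in TgSREBP-1a, and 11.26 and 10.70 in TgSREBP-2. The Scap-/- and SREBP wild type arrays overlapped and lay at least 1.83 below every array of the other groups. Without SCAP the mean was 5.53-fold lower than in Scap wild type (log2 difference -2.47, SE 0.279). It was 8.67-fold higher than SREBP wild type in TgSREBP-1a (3.12, SE 0.279) and 11.3-fold higher in TgSREBP-2 (3.50, SE 0.279). Next came Scap wild type, then TgSREBP-1a and TgSREBP-2, without overlap, the transgenic groups separated by 0.02 between their nearest arrays.

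The exact sterol regulatory element TCACNCCAC was found in none of these windows, and in 1.24% of all 32851 promoter windows of 300 bases. With up to 1 mismatch outside the N it was found in the Nsdhl window and in 24.2% of all windows. CCAAT, present in the Nsdhl and Tm7sf2 windows and in the first Pmvk window, occurs in 37.4% of all windows, and GGGCGG, present for Nsdhl and Tm7sf2, in 35.7%. The E-box CANNTG, left in lower case, occurred once each in the Nsdhl and first Pmvk windows, in Nsdhl overlapping a CCAAT match, and in 72.3% of all windows. The window at the second Pmvk start site held 2 E-boxes and no other match. Both strands were searched, and a match describes letters, not binding.

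**Figure D2:**
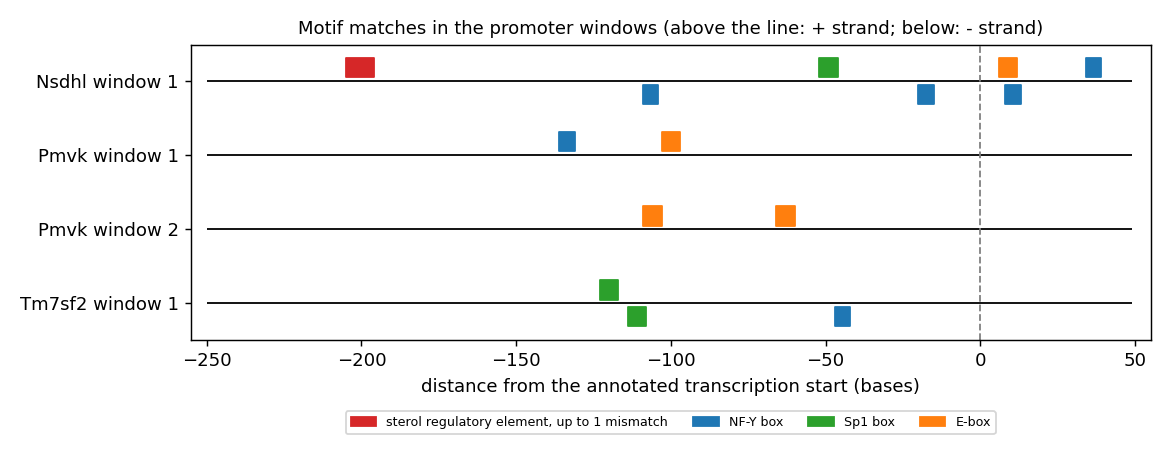
Positions of the motif matches in the 4 promoter windows, in bases from the annotated start (dashed line); the E-box reads alike on both strands and is drawn on the + strand. The Nsdhl window holds 4 CCAAT matches, the first Pmvk window 1, the second Pmvk window 0 and the Tm7sf2 window 1.

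The comparison between the transgenic groups did not itself enter the choice of the genes and was tested. The arrays of both groups did enter that choice, as the genes had to rise in each. The test is thus not independent of the choice, and a missing call does not show equal levels. None of the 4 probe sets was called between TgSREBP-2 and TgSREBP-1a, where 0.244% of all probe sets were called higher and 0.27% lower. Tm7sf2 was 1.76-fold higher in TgSREBP-2, with both arrays above both of TgSREBP-1a (log2 difference 0.81, SE 0.233, unadjusted 95% interval 0.30 to 1.32, limma adjusted p = 0.28). Nsdhl differed by 0.38 (SE 0.279, interval -0.23 to 0.99, limma adjusted p = 0.861), with an upper limit of 1.99-fold. Pmvk _f_at differed by 0.12 (interval -0.24 to 0.48, limma adjusted p = 0.955), with an upper limit of 1.40-fold, and Pmvk _i_at by 0.11 (interval -0.20 to 0.41, limma adjusted p = 0.955). On leaving out 1 array at a time the differences ranged from 0.50 to 1.13 for Tm7sf2, from 0.10 to 0.66 for Nsdhl and from 0.01 to 0.23 for Pmvk _f_at; the lowest were all reached without TgSREBP-2 replicate 1. Of the 7 measured acinar markers, Cpa1, Gp2 and Cuzd1 were called higher in TgSREBP-2 in the same comparison (5.18, 2.56 and 1.78). Cela2a (0.57), Amy2a5 (0.35), Cpb1 (0.22) and Pnliprp1 (-0.12) were not called. Of the 5 measured hepatocyte markers Serpina11 alone was called, higher in TgSREBP-2 (1.08). The part of these markers' cells in the Tm7sf2 difference was not tested.

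The 2 wild types had different baselines. Nsdhl was 5.72-fold higher in Scap wild type than in SREBP wild type (log2 difference 2.52, SE 0.279), Pmvk _f_at was 2.52-fold higher (1.33, SE 0.165) and Tm7sf2 1.77-fold higher (0.82, SE 0.233), and in each case the arrays of the 2 groups did not overlap. On leaving out 1 array the differences ranged from 2.21 to 2.82 for Nsdhl, from 1.07 to 1.59 for Pmvk _f_at and from 0.50 to 1.14 for Tm7sf2, the lowest each time without SREBP wild type replicate 2. Pmvk _i_at differed by 0.20 (SE 0.138), and there the arrays overlapped. Diet, age, poly(I:C) and the study of origin differ together between these groups and cannot be told apart, and since their arrays served to choose the genes no test is given. The SREBP wild type lay close to the liver without SCAP for Nsdhl (0.05 lower) and further above it for Pmvk _f_at (0.40) and Tm7sf2 (1.01). The Scap wild type in turn lay 0.60 below TgSREBP-1a for Nsdhl, 0.63 below for Tm7sf2 and 1.60 below for Pmvk _f_at.

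Between the lowest and the highest group mean the level spanned 11.3-fold for Nsdhl, 11.0-fold for Pmvk _f_at and 9.70-fold for Tm7sf2. These ranges (3.50, 3.45 and 3.28 on the log2 scale) ranked 3, 4 and 6 among the 11868 probe sets. The genes were chosen by movement between these same group means, which favours such ranks, so nothing is read from them. Within its own range, from 0 at the lowest to 100 at the highest group, Nsdhl stood at 71.9% in Scap wild type and at 0% in SREBP wild type. Pmvk _f_at stood at 50.2% and 11.6%, and Tm7sf2 at 55.9% and 30.8%. The fold difference seen with a transgene or without SCAP thus started from a different point of the range for each gene. Scap-/- was the lowest group for Pmvk _f_at and Tm7sf2, while for Nsdhl the arrays of Scap-/- and SREBP wild type overlapped and neither group can be called the lowest; without SREBP wild type replicate 2, that group stood at 7.79, above the 7.53 of Scap-/-.

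Of 22 other genes of cholesterol synthesis, from a list made with earlier results of these data known, 11 had a named probe set and the others were not analysed here. By limma none of the 11 was called lower or higher in Scap-/- (2 of 11 had an unadjusted p under 0.05, beside 3.8% of all probe sets; called over all probe sets: 0.0421% in each direction). None was called in TgSREBP-1a (4 under 0.05, beside 9.4%; called over all: 0.683% higher and 0.354% lower), in TgSREBP-2 (3 under 0.05, beside 6.34%; called over all: 0.11% higher and 0.00843% lower) or between the transgenic groups (2 under 0.05, beside 7.74%; called over all: 0.244% higher and 0.27% lower). Their median difference was -0.003 in Scap-/-, 0.10 in TgSREBP-1a and 0.03 in TgSREBP-2, beside 0.001, -0.03 and -0.01 over all probe sets. The largest ranges over the groups were those of Cyp51 (1.20), Fdps (0.69), Lss (0.61) and Sc5d (0.51). Group means of Sc5d, Mvk, Fdps, Idi2, Lss, Msmo1, Ggps1 and Cyp51 lay between 3.03 and 5.90, beside array medians of 4.69 to 4.77. Those of Hsd17b7, Dhcr7 and Mvd lay between 7.19 and 10.35. Mvk and Fdps were measured by _i_at probe sets, and Msmo1, Dhcr7 and Mvd by _r_at. RMA compresses low values, so a missing call at a dim probe set does not show that the gene did not respond.

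Cyp51, the lanosterol demethylase that acts just before Tm7sf2, had levels of 4.71 and 4.69 in Scap-/-, 5.19 and 4.84 in Scap wild type, 4.71 and 4.81 in SREBP wild type, 5.46 and 5.44 in TgSREBP-1a, and 6.25 and 5.55 in TgSREBP-2. Both transgenic groups lay above both wild types, and the 2 TgSREBP-2 arrays were 0.70 apart. The differences were 0.69 in TgSREBP-1a (SE 0.187, limma adjusted p = 0.163), 1.14 in TgSREBP-2 (SE 0.187, adjusted p = 0.0575) and -0.32 in Scap-/- (adjusted p = 0.999). Cyp51 was called in TgSREBP-2 on leaving out its replicate 2 (1.49, from the array at 6.25 alone). On leaving out its replicate 1, with the array at 5.55 kept, Cyp51 was not called there. Leaving out either TgSREBP-2 array led to a call of Cyp51 in TgSREBP-1a, at the same 0.69. With 1 array left, the spread within TgSREBP-2 no longer entered the fit. Lss, which closes the ring to lanosterol, differed by 0.51 in TgSREBP-1a (SE 0.101, adjusted p = 0.0388), under the 1.5-fold floor, and by 0.54 in TgSREBP-2 (adjusted p = 0.126). Sc5d, a later desaturase, differed by 0.41 and 0.50 and Fdps, which makes farnesyl diphosphate, by -0.55 and -0.16, none of them called. The second probe set of Fdps, with a mean level of 3.48, differed by 0.07 and 0.04. That of Lss, with a mean level of 2.73, differed by -0.11 and -0.10. Mvd, the enzyme that follows Pmvk, is named after its values were seen: at its 1 probe set, an _r_at, the group means lay between 10.19 and 10.35, a range of 0.16.

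**Figure D3:**
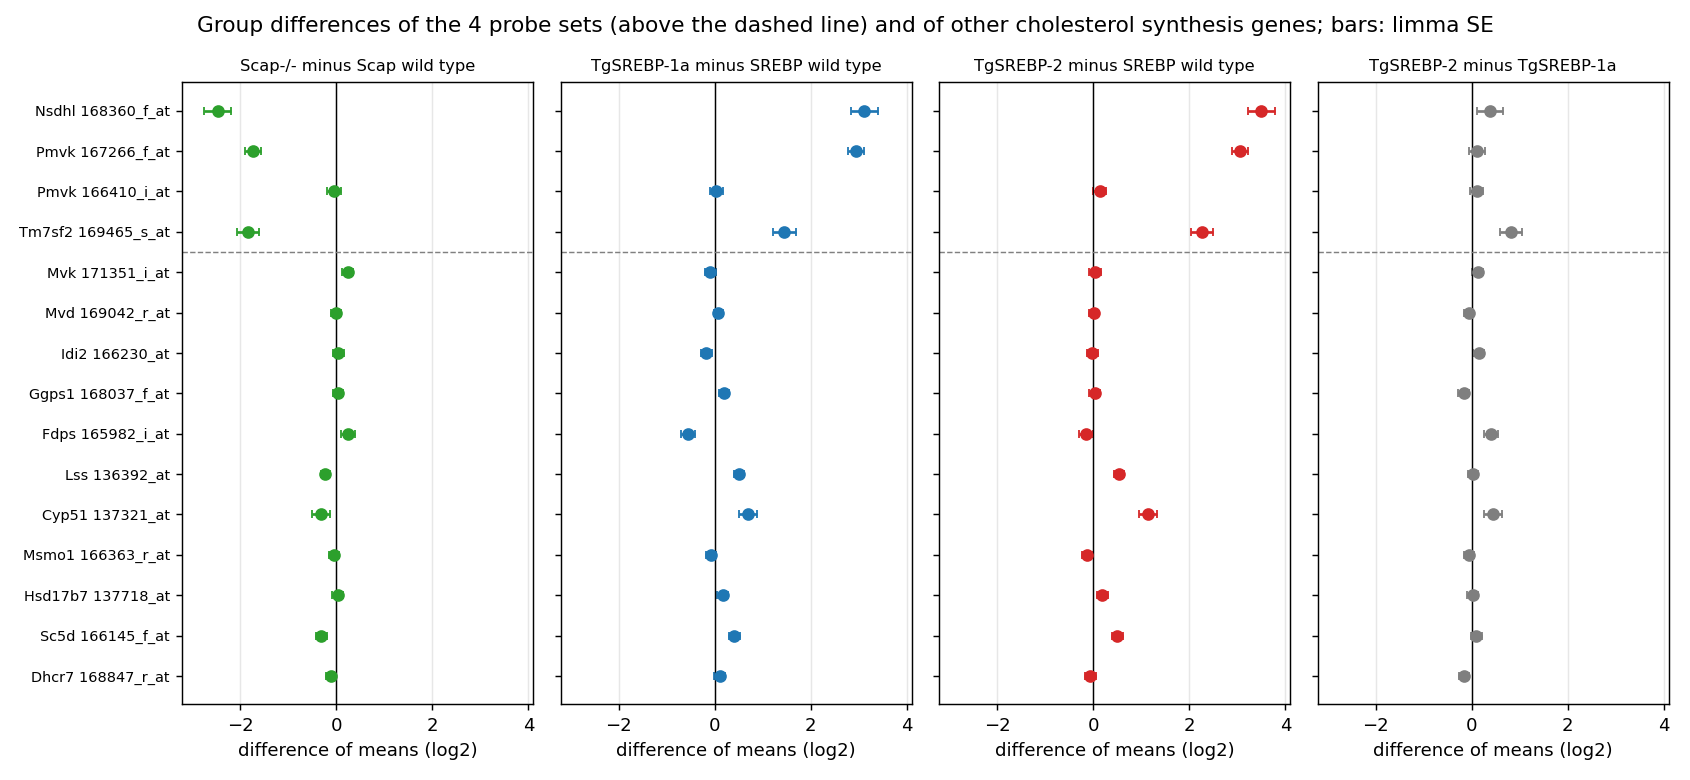
Differences of group means (log2) in 4 comparisons for the 4 probe sets (above the dashed line) and 11 other cholesterol synthesis genes; bars are limma standard errors. Nsdhl, Pmvk _f_at and Tm7sf2 lie from -2.47 to -1.73 in Scap-/- and from 1.45 to 3.50 with the transgenes, while the 11 others lie between -0.55 and 1.14.

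Likeness of pattern was taken as Pearson's correlation over the 10 arrays, which come from 5 pools and share their normalisation, with the 89 other probe sets that have 1 gene symbol and a range of at least 1 on the log2 scale. Among the 3 genes, Nsdhl and Pmvk _f_at correlated at 0.96, Pmvk and Tm7sf2 at 0.95 and Nsdhl and Tm7sf2 at 0.93, and each had the other two as its closest matches, as the way they were chosen favours. Outside them, the closest to Nsdhl were Sik1 (0.88), Cyp51 (0.85) and Cyb5b (0.83). Closest to Pmvk were Sik1 (0.92), Abcg8 (0.91) and Cyp51 (0.89), and closest to Tm7sf2 were Cyp51 (0.90), Abcg8 (0.89) and Cisd1 (0.85). Sik1 encodes a salt-inducible kinase, Abcg8 one partner of the sterol transporter into bile, and Cisd1 an iron-sulphur protein of mitochondria.

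The shapes were less alike in size. The group means of Nsdhl and Pmvk, each centred on its own mean, differed by 0.40 (root mean square, log2), those of Pmvk and Tm7sf2 by 0.48 and those of Nsdhl and Tm7sf2 by 0.62. Abcg8 differed by 0.53 from Tm7sf2 and by 0.73 from Pmvk, Cyp51 by 0.72 from Tm7sf2 and by 1.12 from Nsdhl, and Sik1 by 1.13 from Nsdhl. Abcg8, with group means of 7.54 in Scap-/-, 7.75 in Scap wild type and 7.64 in SREBP wild type, stood at 8.99 in TgSREBP-1a and 9.63 in TgSREBP-2. It was chosen by its likeness to genes that were high in both transgenic groups, so these differences are given with no test. Its difference without SCAP was -0.21, beside -1.73 to -2.47 for Pmvk _f_at, Tm7sf2 and Nsdhl.

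**Figure D4:**
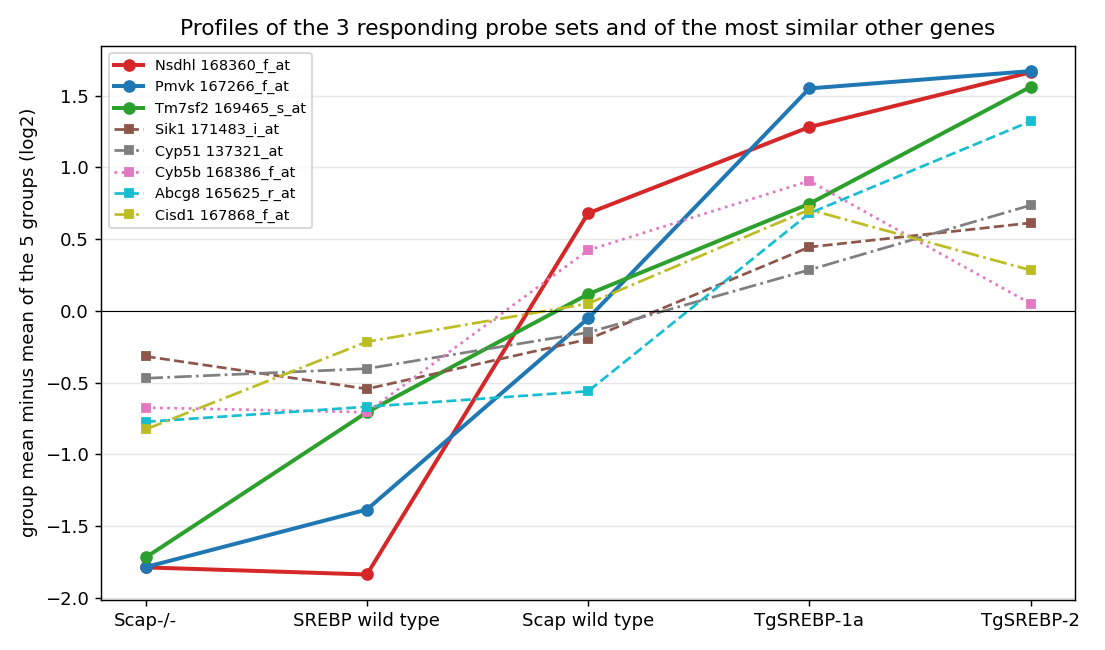
Group means minus the mean of the 5 groups (log2) for the 3 responding probe sets (solid lines) and the 5 other genes with the most similar pattern (broken lines). The 3 solid lines span 3.28 to 3.50 from lowest to highest group, and the broken lines 1.16 to 2.09.

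The duplicate hybridisations of these probe sets stood apart in one direction. For Nsdhl, replicate 1 exceeded replicate 2 in all 5 pools, by 0.16 to 0.79 on the log2 scale, for Pmvk _f_at by 0.16 to 0.52 and for Tm7sf2 by 0.08 to 0.64. At Pmvk _i_at replicate 1 was lower in all 5, by between -0.37 and -0.05. Over all 11868 probe sets, 6.15% had replicate 1 higher in all 5 pools and 3.48% had it lower in all 5. The mean size of the gap was 0.52 for Nsdhl, 0.40 for Tm7sf2, 0.27 for Pmvk _f_at and 0.20 for Pmvk _i_at, against a median of 0.13 over all probe sets. For the 3 genes the gap was smallest in TgSREBP-1a.

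**Figure D5:**
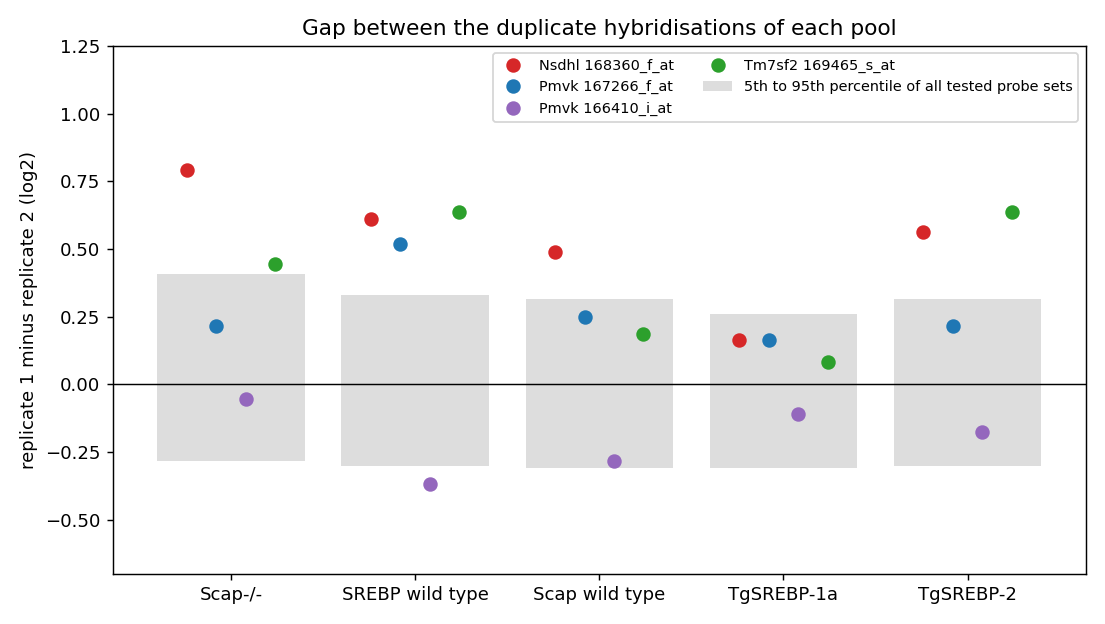
Replicate 1 minus replicate 2 (log2) of each pool for the 4 probe sets (points); grey bars span the 5th to 95th percentile of all 11868 probe sets. Nsdhl lies above the bar in 4 of 5 pools, and Pmvk _i_at below 0 in all 5.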

How the data were processed

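Liver RNA of 5 groups of mice was measured on 10 Affymetrix MG_U74Cv2 arrays, 2 hybridisations of 1 pool per group. The deposited values are log2 signals made by the authors with RMA, per the submitters' processing notes, while the design text names Microarray Suite 5.0; the version and settings of RMA are not given in the sources used here. Of 11934 probe sets 66 controls were left out, and no level filter was applied. Gene names came from the platform annotation, updated through Entrez IDs to RefSeq: 7717 probe sets had 1 symbol, 150 several and 4001 none. All 10 arrays entered 1 limma fit with a mean per group (limma 3.58.1, R 4.3.3; 5 residual degrees of freedom), and p-values were adjusted over 11868 probe sets by Benjamini-Hochberg. P-values measure the spread between hybridisations of 1 pool; variation between mice was not measured, and the number of arrays limits precision. RMA makes arrays alike in distribution and compresses low values. Samples were grouped by their labels. Same-numbered arrays were not treated as paired.

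The genes and lists were chosen with earlier results of these data known. The text names every probe set of the 3 genes, the other cholesterol genes with a range of at least 0.5 on the log2 scale, the 5 probe sets with the most similar pattern to each, and the 5 next in the ranking by smallest movement. Of the genes 3 of 3 had RefSeq promoter windows (GRCm38.p6). Alternatives were quantile, cyclic loess and median normalisation across arrays, the replicate number as a term, only the arrays of the same study, no fold floor or a 2-fold floor, a variance trend, robust variances, only the brighter probe sets, any probe set of a gene, and leaving out each array.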

Additional observations from a re-analysis of the deposited data

How the results depend on the processing

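Over 388 alternatives in all, the 16 differences of the 4 probe sets that were given with no test moved by less than the combined SD of the duplicates, which leaving out 1 of 2 arrays cannot exceed, and those of Pmvk _i_at changed sign on leaving out an array: from -0.04 to 0.10 in Scap-/- (without Scap wild type replicate 2), from 0.03 to -0.02 in TgSREBP-1a (without its own replicate 2; -0.15 without SREBP wild type replicate 1) and from 0.14 to -0.05 in TgSREBP-2 (without SREBP wild type replicate 1). Of the 4 tested differences 3 kept their direction and side of the threshold in every alternative. Duplicates of 1 pool limit all p-values, and the cause of the changes below was not tested. Same-numbered arrays did not vary together in every pair of groups: the correlations of their gaps ran from 0.20 to 0.33 among 4 groups but were between -0.11 and -0.18 for TgSREBP-2 with 3 of them. With the replicate block the counts of called probe sets went from 10 to 19 in Scap-/-, from 123 to 186 in TgSREBP-1a, from 14 to 37 in TgSREBP-2 and from 61 to 96 between the transgenic groups; Tm7sf2, at the same 0.81, was then called between them (limma adjusted p = 0.0153, 0.0153 to 0.939 over its alternatives), and 1 other cholesterol gene, Cyp51, in TgSREBP-2 (adjusted p = 0.00941). A replicate block with crossed numbers in TgSREBP-2, chosen after seeing the data, gave 11, 165, 23 and 78. With the arrays of the same study alone 4 were called in Scap-/-. A 2-fold floor left 59 in TgSREBP-1a and 31 between the transgenic groups, and without a floor 1 other cholesterol gene, Lss, was called in TgSREBP-1a. Leaving out 1 array gave 3 to 11 called in Scap-/- (3 without Scap wild type replicate 1), 40 to 134 in TgSREBP-1a (40 without its replicate 1), 7 to 17 in TgSREBP-2 (7 without its replicate 1) and 23 to 65 between the transgenic groups (23 without TgSREBP-1a replicate 1). Counts also moved by over 1.5 times without Scap-/- replicate 1 (6), Scap wild type replicate 2 (6), SREBP wild type replicate 2 (63 in TgSREBP-1a, 9 in TgSREBP-2), TgSREBP-1a replicate 2 (57, and 35 between the transgenic groups), and TgSREBP-2 replicate 1 or 2 (30 and 38 between them). The other cholesterol genes gave 0 to 1 in TgSREBP-1a and in TgSREBP-2.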

Other observations

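One gene just below the 3 in the ranking by smallest movement is given here as values, chosen after they were seen. Cyb5b, a cytochrome b5 of the outer mitochondrial membrane, had group means of 6.23 in Scap-/-, 7.33 in Scap wild type, 6.20 in SREBP wild type, 7.81 in TgSREBP-1a and 6.96 in TgSREBP-2 at its _f_at probe set. The differences on the log2 scale were -1.10 in Scap-/-, 1.61 in TgSREBP-1a and 0.76 in TgSREBP-2. As they placed the gene in the ranking, no test is given. On single arrays Cyb5b stood at 7.425 and 6.491 in TgSREBP-2, 7.951 and 7.673 in TgSREBP-1a, and 6.435 and 5.966 in SREBP wild type. It stood at 6.621 and 5.845 in Scap-/- and at 7.458 and 7.199 in Scap wild type. The TgSREBP-2 duplicates of Cyb5b were thus further apart than its difference from SREBP wild type. Its second probe set, _i_at, had low levels, with group means of 2.97 to 3.24, and differed by -0.12, 0.26 and 0.23 in the same order of Scap-/-, TgSREBP-1a and TgSREBP-2. Over all probe sets the median range between groups was 0.28 for _i_at and 0.25 for _f_at. Which transcripts each detects was not tested.

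Probe sets whose replicate 1 was higher in all 5 pools were unevenly spread over the classes of probe set names. They made up 13.7% of the 1091 with the suffix _f_at, the class of Nsdhl and of the Pmvk _f_at probe set, and 16.4% of the 122 with _s_at, the class of Tm7sf2. Among the 7488 plain _at probe sets the share was 6.08%, among the 1307 with _i_at 4.97% and among the 1829 with _r_at 2.08%. The difference between classes was not tested.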
